A study of Mus musculus with 12 samples.

Results

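The gene set covers cholesterol synthesis and the regulators of SREBP2, the transcription factor that drives it. Its 26 genes were chosen by name, as steps of the pathway in order, and all 26 were among the 24619 gene symbols of the counts table. Of these, 25 had enough counts to be tested. Messenger RNA was sequenced from mouse cells labelled primary cardiac fibroblasts, which were grown in DMEM with 10% FBS and antibiotics, starved for 12 h and then kept for 24 h in conditioned medium (CM), the medium taken off cultured adipocytes. The adipocytes had been infected with lentivirus, and 3 libraries were made for each of 4 media. OE_CM was the medium of adipocytes overexpressing the human microRNA hsa-miR-548ay. TGF_KD_CM was TGF-beta1, which turns fibroblasts towards matrix production, together with the medium of adipocytes in which hsa-miR-548ay was inhibited. TGF_VEC_CM was TGF-beta1 with the medium of vector-infected adipocytes. VEC_CM was the medium of vector-infected adipocytes without TGF-beta1. The sample titles gave the groups, since the treatment field calls the microRNA miR-549ay in replicate 2 of OE_CM and of TGF_KD_CM, and miR-550ay in replicate 3. The study treats OE_CM and VEC_CM as one part and both TGF-beta1 groups as another. The labels do not say that the parts were run together, so in TGF_VEC_CM against VEC_CM the growth factor and the part of the study cannot be told apart. They also do not say whether libraries came from separate cultures, so the p-values given here rest on the spread between libraries alone, and that spread may be technical.

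Cholesterol is built from acetyl-CoA through mevalonate, isoprenoids, squalene and lanosterol. SREBP2, encoded by Srebf2, is held in the endoplasmic reticulum by its escort Scap and the Insig proteins when sterols are plentiful. When sterols run low, Scap carries SREBP2 to the Golgi, where it is cleaved, and the freed part enters the nucleus and activates genes for cholesterol synthesis and lipoprotein uptake, Insig1 and Srebf2 among them. Fibroblasts, like most cells, can make their own cholesterol or take it up from lipoproteins.

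Library totals ran from 33379207 to 37226153 counts, and levels are given as CPM, the count divided by a TMM-scaled library size. The floor of detection was taken as 3 counts, or up to 0.0899 CPM. Such floors cover counting error only. Fibroblast markers such as Col1a1, Col1a2, Vim, Ddr2 and Pdgfra were abundant, but Dcn, Lum and Thy1, also markers of fibroblasts, were under 1 CPM in every library. All 5 endothelial markers and 5 of 6 adipocyte markers, all but Cidec, were under 1 CPM in every library too.

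The promoters of 3 genes are printed because Hmgcs1 was the one member whose window held the sterol response element searched, and because Insig1 and Insig2, a pair with like function, went separate ways in these data. The sequences are RefSeq windows of GRCm38.p6, 250 bases before to 50 bases after the start of the gene, on the strand of the gene. Capitals mark the sterol response element TCACNCCAC, which SREBPs bind, and the NF-Y box CCAAT (or ATTGG on the other strand). The Hmgcs1 window lies on the plus strand at chr13:119690101-119690400, and its sterol response element begins 137 bases before the start. The Insig1 window lies on the plus strand at chr5:28071162-28071461. For Insig2, the window furthest upstream is given, on the minus strand at chr1:121332540-121332839. Its other windows, at chr1:121327629-121327928 and chr1:121327975-121328274, each held 0 matches of CCAAT and are not printed. The CCAAT boxes shown for Insig2 thus belong to 1 of its starts only.
Hmgcs1: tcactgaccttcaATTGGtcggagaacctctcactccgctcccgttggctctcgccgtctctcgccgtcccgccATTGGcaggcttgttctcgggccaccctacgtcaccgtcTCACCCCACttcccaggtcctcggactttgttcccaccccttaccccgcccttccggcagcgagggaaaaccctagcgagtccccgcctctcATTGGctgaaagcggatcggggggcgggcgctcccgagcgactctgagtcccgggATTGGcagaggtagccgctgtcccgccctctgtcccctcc
Insig1: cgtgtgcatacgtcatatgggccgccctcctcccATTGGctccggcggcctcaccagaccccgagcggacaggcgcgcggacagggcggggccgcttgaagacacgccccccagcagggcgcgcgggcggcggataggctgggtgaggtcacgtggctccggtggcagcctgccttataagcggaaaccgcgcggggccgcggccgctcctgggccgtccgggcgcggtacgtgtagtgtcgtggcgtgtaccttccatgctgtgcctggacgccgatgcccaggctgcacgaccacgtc
Insig2: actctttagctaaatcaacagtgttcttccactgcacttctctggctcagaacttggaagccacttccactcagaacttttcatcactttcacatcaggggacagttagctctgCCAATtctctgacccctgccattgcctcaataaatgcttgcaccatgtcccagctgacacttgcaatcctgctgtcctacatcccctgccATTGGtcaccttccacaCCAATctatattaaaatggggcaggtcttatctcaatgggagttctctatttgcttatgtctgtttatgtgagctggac
Windows were at hand for 22 members, and Fdps, Fdft1, Sqle and Stard4 had none. On either strand TCACNCCAC was found in 1 of the 22 (4.55%), against 1.44% of all genes with a window. CCAAT was found in 20 of the 22 (90.9%), against 41.1% of all genes. All genes here are the 27025 with a window, whether or not they were expressed or tested, while these members were all tested. Shares among tested genes alone were not taken. The Sp1 box GGGCGG was also found in 20 of the 22 (90.9%), against 38.2%, and the E-box CACGTG in 5 of the 22 (22.7%), against 8.09%. Motifs were searched one by one, so matches of different motifs may overlap, and a match describes the letters and not binding. Only this strict form of the sterol response element was searched, so a window without a match was not shown to lack such an element.

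With TGF-beta1, most of the pathway was lower. In TGF_VEC_CM against VEC_CM, 21 of the 25 tested genes were lower and 0 were higher, where 29.4% of all 14400 genes tested were lower and 28.9% higher by edgeR's quasi-likelihood test at a Benjamini-Hochberg adjusted p under 0.05. At an unadjusted p under 0.05, 1 member was higher, and by DESeq2 0 were. At least 2-fold lower were 12 of the 25, against 1.96% of all genes tested. The median log2 fold change of the members was -0.94 and that of all genes 0.00. The 21 lower genes came from every stage of the pathway. In bulk RNA, fewer cells of a type and less RNA per cell cannot be told apart. Summed over the 26 members, libraries held 1095 to 1118 CPM in TGF_VEC_CM, against 2529 to 2670 CPM in VEC_CM. Markers of other cells also moved between these groups. Leukocyte markers summed to 34.2 to 37.3 CPM in TGF_VEC_CM, against 45.0 to 46.2 CPM in VEC_CM, with 1 of the 6 under 1 CPM in every library. Cardiomyocyte markers summed to 105 to 116 CPM in TGF_VEC_CM, against 70.1 to 75.2 CPM in VEC_CM, nearly all of it Tnnt2, with 3 of the 5 used under 1 CPM in every library. The 10 fibroblast markers summed to 8584 to 8669 CPM in TGF_VEC_CM, against 9468 to 9566 CPM in VEC_CM. They did not move together. Vim had a mean of 1764 CPM in TGF_VEC_CM and 3107 CPM in VEC_CM, and Col1a1 had 1786 and 1303 CPM. Of the 8 fibroblast markers tested, 2 were higher and 2 lower, near the shares of all genes. Adipocyte markers, nearly all Cidec, summed to 11.6 to 12.8 CPM in TGF_VEC_CM, against 8.44 to 10.1 CPM in VEC_CM. Mural markers, nearly all Des, summed to 36.5 to 38.1 CPM in TGF_VEC_CM, against 38.5 to 43.2 CPM in VEC_CM. The part of all these markers in the result was not tested.

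**Figure D1:**
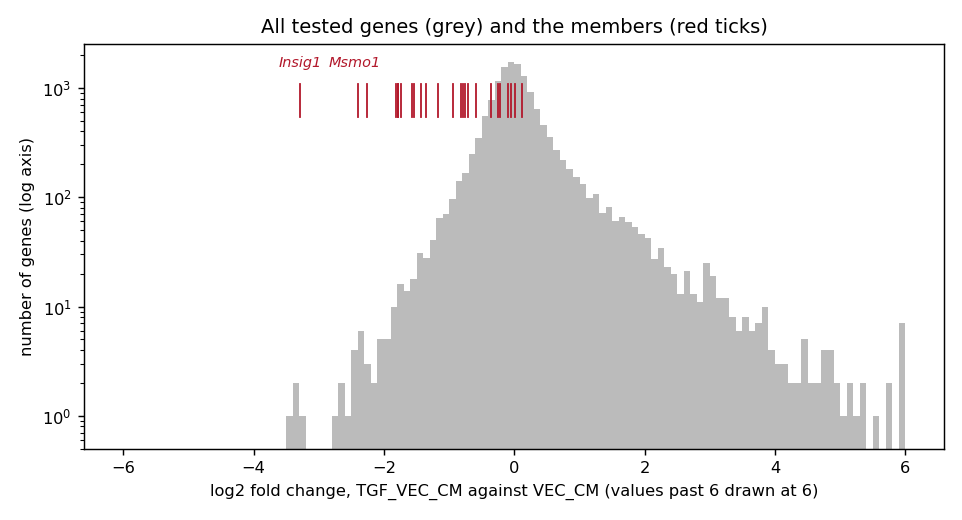
The histogram shows the log2 fold change of TGF_VEC_CM against VEC_CM for the 14400 genes tested (vertical axis, number of genes on a log scale), and each red tick is 1 of the 25 tested members. Ticks run from -3.29 for Insig1 to 0.12 for Ggps1, and most lie left of the bulk of genes.

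Both microRNA media moved fewer of these genes, by smaller amounts. In OE_CM against VEC_CM, 5 of the 25 were higher and 11 lower, where 28.4% of all genes tested were higher and 25.7% lower. The members' median log2 fold change was -0.06, against -0.01 for all genes. In TGF_KD_CM against TGF_VEC_CM, 11 were higher and 3 lower, where 23.0% of all genes were higher and 20.2% lower. The members' median was 0.06, against 0.00 for all genes. With upper-quartile scaling 3 were higher and 15 lower in OE_CM, and 9 higher and 3 lower in TGF_KD_CM. That scaling also moved the calls of all genes, to 2798 higher and 5059 lower in OE_CM and 2898 higher and 3330 lower in TGF_KD_CM. No member changed as much as 2-fold in either comparison. Summed over the 26 members, libraries held 2458 to 2600 CPM in OE_CM and 1216 to 1238 CPM in TGF_KD_CM. In this sum OE_CM lay near VEC_CM and TGF_KD_CM a little above TGF_VEC_CM. Abundant members weigh most in it, such as Cyp51 with a mean of 678 CPM in OE_CM and 643 CPM in VEC_CM. Rises and falls of single members can cancel in such a sum. Marker sums moved here too. The 10 fibroblast markers summed to 9791 to 10040 CPM in OE_CM, against 9468 to 9566 CPM in VEC_CM, with Pdgfra at a mean of 96.0 CPM in OE_CM and 194 CPM in VEC_CM. They summed to 9421 to 9740 CPM in TGF_KD_CM, against 8584 to 8669 CPM in TGF_VEC_CM. Leukocyte markers summed to 23.0 to 36.2 CPM in OE_CM, below VEC_CM, and to 31.3 to 33.1 CPM in TGF_KD_CM, below TGF_VEC_CM. Cardiomyocyte markers summed to 163 to 167 CPM in OE_CM, above VEC_CM, and to 97.3 to 104 CPM in TGF_KD_CM, against 105 to 116 CPM in TGF_VEC_CM. Mural markers, nearly all Des, summed to 21.8 to 25.9 CPM in OE_CM, against 38.5 to 43.2 CPM in VEC_CM. Adipocyte markers, nearly all Cidec, summed to 13.4 to 15.6 CPM in OE_CM, against 8.44 to 10.1 CPM in VEC_CM, and to 16.7 to 19.8 CPM in TGF_KD_CM, against 11.6 to 12.8 CPM in TGF_VEC_CM. Their part in these changes was not tested. The OE_CM and TGF_VEC_CM comparisons share the VEC_CM libraries, and the TGF_KD_CM and TGF_VEC_CM comparisons share the TGF_VEC_CM libraries, so their values are set side by side and not counted as separate evidence.

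**Figure D2:**
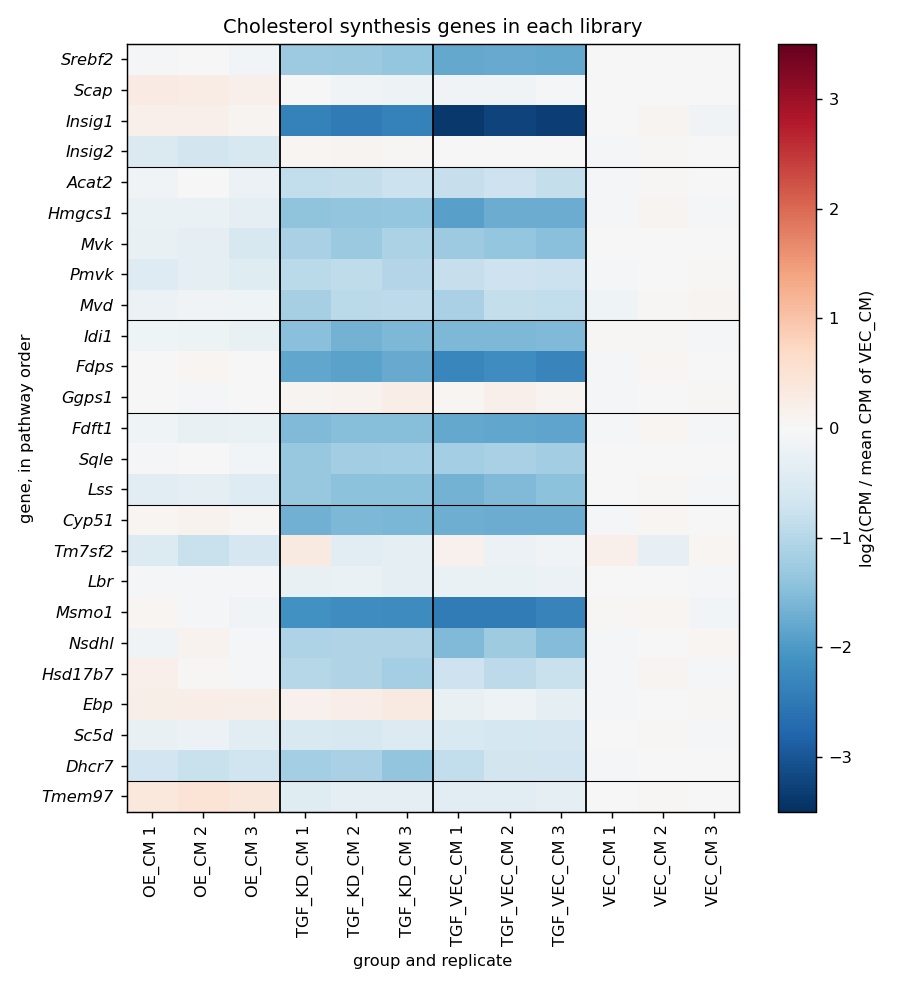
Each row is 1 of the 25 tested members, in pathway order, and each column 1 library. Colour gives log2 of the CPM over the mean CPM of VEC_CM, and thin lines part the stages of the pathway. The TGF_KD_CM and TGF_VEC_CM columns are blue over most rows, deepest for Insig1, with Scap, Insig2, Ggps1 and Tm7sf2 near white, while OE_CM columns stay pale except for rows such as Dhcr7, Insig2 and Tm7sf2.

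The regulators split. Srebf2, which encodes SREBP2 itself, had 287, 304 and 282 CPM in OE_CM, 125, 122 and 118 CPM in TGF_KD_CM, 86.3, 89.0 and 86.5 CPM in TGF_VEC_CM and 299, 305 and 298 CPM in VEC_CM. All 6 TGF-beta1 libraries were below the other 6, and TGF_KD_CM lay above TGF_VEC_CM in every library. Srebf2 was 3.44-fold lower in TGF_VEC_CM (log2 fold change -1.78 ± 0.030 (SE), adjusted p = 8.50e-53 by edgeR), and was 1.39-fold higher in TGF_KD_CM than in TGF_VEC_CM (0.48 ± 0.031 (SE), adjusted p = 6.14e-21). In OE_CM its log2 fold change was -0.05 ± 0.028 (SE), adjusted p = 0.148, and OE_CM and VEC_CM libraries overlapped. It passed in some alternatives, at -0.13 with upper-quartile scaling (adjusted p = 2.27e-05) and -0.08 without OE_CM replicate 2 (adjusted p = 0.0298; 2.27e-05 to 1 over all alternatives, the test against 1.2-fold included). Insig1, which retains the Scap and SREBP complex and is itself a target of SREBP2, had 141, 143 and 134 CPM in OE_CM, 24.3, 22.6 and 24.6 CPM in TGF_KD_CM, 12.2, 13.4 and 12.9 CPM in TGF_VEC_CM and 126, 136 and 116 CPM in VEC_CM. Its groups with and without TGF-beta1 stood far apart, and TGF_KD_CM lay between. Insig1 was 9.79-fold lower in TGF_VEC_CM (-3.29 ± 0.052 (SE), adjusted p = 9.57e-50), the 4th lowest log2 fold change of all 14400 genes tested. It was 1.86-fold higher in TGF_KD_CM than in TGF_VEC_CM (0.89 ± 0.060 (SE), adjusted p = 4.65e-19), the largest rise among the members, and rose by 0.15 ± 0.040 (SE), adjusted p = 0.00145 in OE_CM, where libraries of both groups overlapped and the call was lost with upper-quartile scaling (0.06, adjusted p = 0.203) and with limma on FPKM (0.07, adjusted p = 0.254; 5.22e-05 to 1 over all alternatives).

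Insig2, which retains the same complex, had 40.1, 36.3 and 38.7 CPM in OE_CM, 59.6, 61.0 and 58.8 CPM in TGF_KD_CM, 57.0, 56.8 and 57.2 CPM in TGF_VEC_CM and 55.4, 58.1 and 57.1 CPM in VEC_CM. Only the OE_CM libraries were low, and the other 9 lay within a few CPM of each other. In TGF_VEC_CM its log2 fold change was 0.00 ± 0.044 (SE), adjusted p = 0.949, and in TGF_KD_CM 0.07 ± 0.044 (SE), adjusted p = 0.211. In OE_CM it fell by 0.57 ± 0.046 (SE) on the log2 scale (adjusted p = 2.83e-17), so that Insig1 and Insig2 moved apart there as well. Scap, the escort that carries SREBPs to the Golgi, had 76.2, 75.6 and 71.5 CPM in OE_CM and 62.2, 62.3 and 63.8 CPM in VEC_CM, and was higher in every OE_CM library (0.25 ± 0.043 (SE), adjusted p = 1.36e-06). In TGF_VEC_CM against VEC_CM its log2 fold change was -0.09 ± 0.043 (SE), adjusted p = 0.0639, which passed without TGF_VEC_CM replicate 3 (-0.11, adjusted p = 0.0469, 0.0282 to 1 over all alternatives). In TGF_KD_CM against TGF_VEC_CM it was -0.01 ± 0.044 (SE), adjusted p = 0.85. Scap shares 18.6% of its exon bases with a gene on the other strand, and how strand was treated in counting is not given in the sources used here, so reads of such pairs cannot be told apart.

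**Figure D3:**
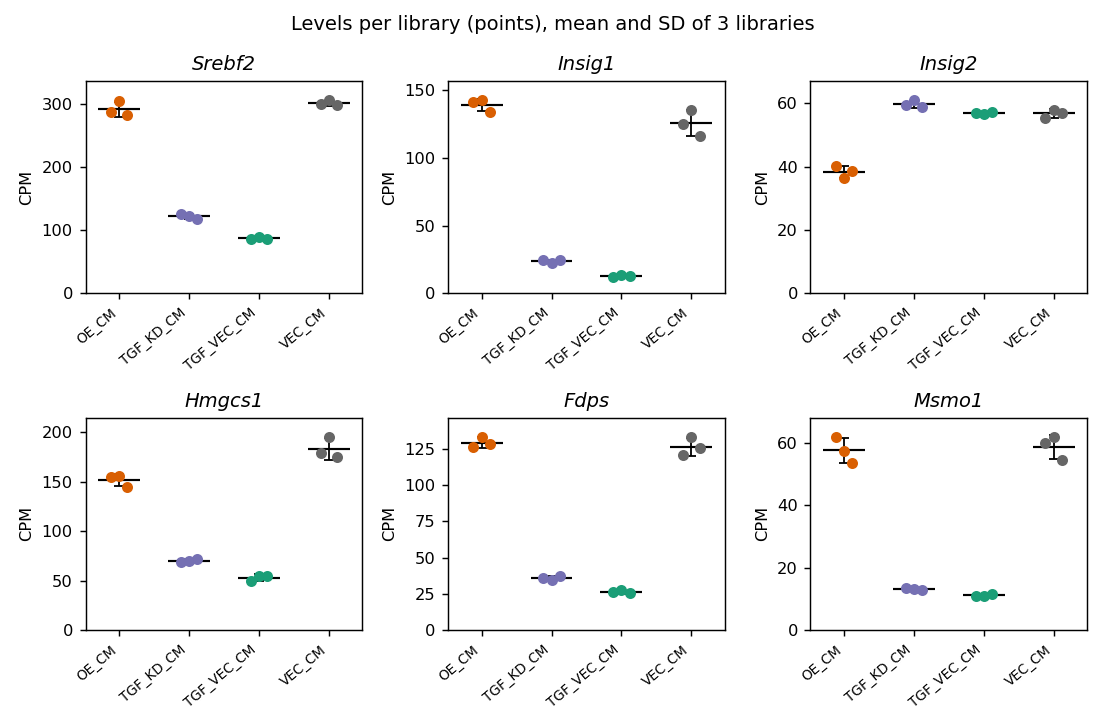
CPM of 6 members in each library (points), with the mean and SD of 3 libraries (bars), for OE_CM, TGF_KD_CM, TGF_VEC_CM and VEC_CM from left to right on axes that start at 0. Srebf2, Insig1, Hmgcs1, Fdps and Msmo1 are low in both TGF-beta1 groups, and Insig2 is low in OE_CM only.

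The mevalonate steps were lower throughout in TGF_VEC_CM, where 29.4% of all genes tested were lower. In OE_CM 4 of 5 were lower by edgeR and 3 by DESeq2, where 25.7% of all genes tested were lower by edgeR. Hmgcs1, which makes HMG-CoA and is the member whose window held the sterol response element, had 155, 156 and 144 CPM in OE_CM, 68.3, 69.8 and 72.2 CPM in TGF_KD_CM, 49.3, 55.0 and 54.8 CPM in TGF_VEC_CM and 179, 195 and 174 CPM in VEC_CM. The 4 groups did not overlap. Hmgcs1 was 3.45-fold lower in TGF_VEC_CM than in VEC_CM (-1.79 ± 0.042 (SE), adjusted p = 3.97e-31), 1.32-fold higher in TGF_KD_CM than in TGF_VEC_CM (0.40 ± 0.044 (SE), adjusted p = 6.49e-10) and 1.21-fold lower in OE_CM than in VEC_CM (-0.27 ± 0.038 (SE), adjusted p = 1.15e-07). It shares 16% of its exon bases with an antisense gene.

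Acat2, whose enzyme joins acetyl-CoA units at the head of the pathway, had 66.6, 71.4 and 62.8 CPM in OE_CM, 39.7, 40.7 and 42.9 CPM in TGF_KD_CM, 41.3, 43.4 and 40.6 CPM in TGF_VEC_CM and 70.0, 74.6 and 72.0 CPM in VEC_CM. It fell by 0.79 ± 0.046 (SE) on the log2 scale in TGF_VEC_CM (adjusted p = 1.20e-23). The small fall in OE_CM (-0.11 ± 0.045 (SE), adjusted p = 0.0351) was lost without OE_CM replicate 3 (-0.06, adjusted p = 0.307), without OE_CM replicate 1 (adjusted p = 0.066) and without VEC_CM replicate 2 (adjusted p = 0.171) or 3 (adjusted p = 0.0783; 0.000136 to 1 over all alternatives), and its libraries overlapped. DESeq2 did not call it either (adjusted p = 0.0571). Mvk, mevalonate kinase, had 28.6, 27.2 and 23.2 CPM in OE_CM, 15.7, 14.0 and 15.8 CPM in TGF_KD_CM, 14.2, 13.4 and 12.3 CPM in TGF_VEC_CM and 33.7, 34.6 and 34.3 CPM in VEC_CM. It was 2.57-fold lower in TGF_VEC_CM (-1.36 ± 0.071 (SE), adjusted p = 3.69e-26) and 1.30-fold lower in OE_CM (-0.38 ± 0.067 (SE), adjusted p = 1.87e-06). Its rise in TGF_KD_CM (0.19 ± 0.076 (SE), adjusted p = 0.0368) was not stable, and libraries of both groups overlapped. Without TGF_VEC_CM replicate 3 its log2 fold change was 0.12 (adjusted p = 0.261, 0.02 to 1 over all alternatives). Leaving out TGF_KD_CM replicate 1 gave an adjusted p of 0.155, its replicate 3 gave 0.179, replicate 2 of TGF_VEC_CM gave 0.0868, and replicates 1 and 3 of VEC_CM gave 0.0547 and 0.0605. The call was also lost with DESeq2, upper-quartile scaling, limma on FPKM and a fit of these groups alone. Pmvk, which adds the next phosphate, had 20.1, 21.6 and 20.4 CPM in OE_CM, 14.2, 14.7 and 13.5 CPM in TGF_KD_CM, 15.7, 16.6 and 16.3 CPM in TGF_VEC_CM and 26.6, 27.4 and 28.0 CPM in VEC_CM. It was lower in all 3 comparisons, with log2 fold changes of -0.75 ± 0.067 (SE), adjusted p = 2.04e-15 in TGF_VEC_CM, -0.40 ± 0.066 (SE), adjusted p = 4.24e-07 in OE_CM and -0.20 ± 0.072 (SE), adjusted p = 0.0188 in TGF_KD_CM. The TGF_KD_CM call was lost without TGF_KD_CM replicate 3 (-0.18, adjusted p = 0.0676, 0.00167 to 1 over all alternatives). Mvd, the decarboxylase that ends this stage, had 8.37, 10.3 and 10.0 CPM in TGF_VEC_CM and 16.6, 18.8 and 19.7 CPM in VEC_CM, a log2 fold change of -0.94 ± 0.087 (SE), adjusted p = 7.95e-15. Its log2 fold changes in OE_CM (-0.16 ± 0.083 (SE), adjusted p = 0.101) and in TGF_KD_CM (-0.06 ± 0.093 (SE), adjusted p = 0.643) did not pass, although that in OE_CM did without VEC_CM replicate 1 (-0.23, adjusted p = 0.0288), with upper-quartile scaling (-0.25, adjusted p = 0.00959) and with limma on FPKM (-0.21, adjusted p = 0.0288; 0.00959 to 1 over all alternatives).

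Among the isoprenoid genes, Idi1 and Fdps fell with TGF-beta1 and Ggps1 did not pass the test. Idi1, the isomerase of the first isoprenoid, had 31.5, 31.2 and 29.3 CPM in OE_CM, 12.9, 11.3 and 11.9 CPM in TGF_KD_CM, 11.9, 11.8 and 12.0 CPM in TGF_VEC_CM and 36.4, 36.0 and 33.4 CPM in VEC_CM. It was 2.96-fold lower in TGF_VEC_CM (-1.57 ± 0.068 (SE), adjusted p = 2.26e-30) and slightly lower in OE_CM (-0.20 ± 0.062 (SE), adjusted p = 0.00447), and the TGF_KD_CM libraries lay on both sides of those of TGF_VEC_CM (0.02 ± 0.075 (SE), adjusted p = 0.862). Fdps, which makes the farnesyl diphosphate that leads to squalene, had 126, 133 and 128 CPM in OE_CM, 35.9, 34.6 and 37.3 CPM in TGF_KD_CM, 26.1, 27.9 and 25.4 CPM in TGF_VEC_CM and 121, 133 and 126 CPM in VEC_CM. It was 4.78-fold lower in TGF_VEC_CM (-2.26 ± 0.043 (SE), adjusted p = 9.57e-50), the 20th lowest of all genes tested, and 1.36-fold higher in TGF_KD_CM than in TGF_VEC_CM (0.44 ± 0.048 (SE), adjusted p = 5.75e-12). In OE_CM its log2 fold change was 0.03 ± 0.037 (SE), adjusted p = 0.506, with overlapping libraries. Fdps shares 77.4% of its exon bases with Gm43738, a gene model on the same strand, so its reads may have been divided between both. Ggps1, which takes farnesyl diphosphate off to the geranylgeranyl branch and not to cholesterol, had 34.2, 36.8 and 34.6 CPM in TGF_VEC_CM and 31.1, 32.5 and 33.6 CPM in VEC_CM. Its log2 fold change was 0.12 ± 0.055 (SE), adjusted p = 0.056 there, -0.01 ± 0.056 (SE), adjusted p = 0.887 in OE_CM and 0.04 ± 0.054 (SE), adjusted p = 0.581 in TGF_KD_CM. With RLE factors, among other alternatives, it passed the threshold as higher in TGF_VEC_CM (0.13, adjusted p = 0.0411, 0.0215 to 1 over all alternatives). It did so too without OE_CM replicate 1 or 3, any 1 TGF_KD_CM library, TGF_VEC_CM replicate 1 or 3, or VEC_CM replicate 3, of which the last gave the largest value (0.16, adjusted p = 0.0251).

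All 3 genes of the squalene stage fell in TGF_VEC_CM, where 29.4% of all genes tested were lower. Fdft1, squalene synthase and the first step given over to sterols, had 54.1, 50.4 and 51.3 CPM in OE_CM, 20.9, 21.4 and 21.4 CPM in TGF_KD_CM, 17.7, 17.4 and 16.8 CPM in TGF_VEC_CM and 58.7, 63.8 and 59.5 CPM in VEC_CM. The 4 groups did not overlap. It was 3.51-fold lower in TGF_VEC_CM (-1.81 ± 0.055 (SE), adjusted p = 9.64e-39), 1.23-fold higher in TGF_KD_CM than in TGF_VEC_CM (0.30 ± 0.060 (SE), adjusted p = 2.62e-05) and 1.17-fold lower in OE_CM (-0.22 ± 0.049 (SE), adjusted p = 8.20e-05), with 20.9% of its exon bases shared with Ctsb on the other strand. Sqle, squalene epoxidase and a slow step of the pathway, had 123, 129.7 and 122 CPM in OE_CM, 52.1, 55.9 and 56.8 CPM in TGF_KD_CM, 56.6, 59.6 and 56.3 CPM in TGF_VEC_CM and 130.2, 131 and 128 CPM in VEC_CM. It was 2.26-fold lower in TGF_VEC_CM (-1.18 ± 0.037 (SE), adjusted p = 2.00e-37) and passed the test in neither OE_CM (-0.06 ± 0.035 (SE), adjusted p = 0.171) nor TGF_KD_CM (-0.07 ± 0.040 (SE), adjusted p = 0.187). It was called lower in OE_CM with upper-quartile scaling (-0.14, adjusted p = 0.00032) and limma on FPKM (-0.13, adjusted p = 0.00605; 0.00032 to 1 over all alternatives), and in TGF_KD_CM with limma (-0.09, adjusted p = 0.0429; 0.0429 to 1 over all alternatives). Lss, which closes the rings to give lanosterol, had 84.2, 89.2 and 81.9 CPM in OE_CM, 44.1, 41.3 and 40.8 CPM in TGF_KD_CM, 35.3, 38.4 and 41.4 CPM in TGF_VEC_CM and 110, 115 and 108 CPM in VEC_CM. It was 2.90-fold lower in TGF_VEC_CM (-1.54 ± 0.045 (SE), adjusted p = 3.02e-38) and 1.31-fold lower in OE_CM (-0.39 ± 0.042 (SE), adjusted p = 3.84e-12), where every OE_CM library lay below every VEC_CM library. Its small rise in TGF_KD_CM (0.13 ± 0.048 (SE), adjusted p = 0.0197) was lost without TGF_VEC_CM replicate 1 (0.06, adjusted p = 0.335) or replicate 2 (0.12, adjusted p = 0.0749) and without TGF_KD_CM replicate 1 (0.08, adjusted p = 0.203; 0.0043 to 1 over all alternatives), and with DESeq2, upper-quartile scaling and limma on FPKM.

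Of the 9 genes that turn lanosterol into cholesterol, 8 were lower in TGF_VEC_CM, against 29.4% of all genes tested. Cyp51, the lanosterol demethylase, had 676, 699 and 659 CPM in OE_CM, 199, 214 and 212 CPM in TGF_KD_CM, 196, 191 and 193 CPM in TGF_VEC_CM and 620.4, 674 and 633 CPM in VEC_CM. It was 3.32-fold lower in TGF_VEC_CM (-1.73 ± 0.029 (SE), adjusted p = 3.26e-44), and slightly higher in OE_CM (0.08 ± 0.027 (SE), adjusted p = 0.0135) and TGF_KD_CM (0.11 ± 0.029 (SE), adjusted p = 0.00201), with overlapping libraries in OE_CM and VEC_CM. The OE_CM value was -0.01 with upper-quartile scaling (adjusted p = 0.785), and the call was lost without OE_CM replicate 2 (0.06, adjusted p = 0.104) or VEC_CM replicate 1 (0.05, adjusted p = 0.148; 0.000639 to 1 over all alternatives). With limma on FPKM neither call held, at 0.0024 in OE_CM (adjusted p = 0.955) and 0.07 in TGF_KD_CM (adjusted p = 0.0795; 7.56e-05 to 1 over all alternatives). Msmo1, which oxidises the methyl groups of sterols, had 61.8, 57.4 and 53.7 CPM in OE_CM, 13.6, 13.0 and 12.8 CPM in TGF_KD_CM, 10.8, 10.8 and 11.6 CPM in TGF_VEC_CM and 60.0, 61.9 and 54.5 CPM in VEC_CM. It was 5.30-fold lower in TGF_VEC_CM (-2.41 ± 0.063 (SE), adjusted p = 2.31e-42), the 12th lowest of all genes tested, and 1.18-fold higher in TGF_KD_CM than in TGF_VEC_CM (0.24 ± 0.073 (SE), adjusted p = 0.00454). Its OE_CM libraries overlapped those of VEC_CM (-0.03 ± 0.052 (SE), adjusted p = 0.683).

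Nsdhl, which acts with Msmo1 in removing those methyl groups, had 37.2, 43.9 and 39.5 CPM in OE_CM, 19.1, 19.3 and 19.4 CPM in TGF_KD_CM, 13.8, 17.0 and 14.1 CPM in TGF_VEC_CM and 39.1, 39.8 and 42.3 CPM in VEC_CM. It was 2.70-fold lower in TGF_VEC_CM (-1.43 ± 0.066 (SE), adjusted p = 3.28e-28) and 1.29-fold higher in TGF_KD_CM than in TGF_VEC_CM (0.37 ± 0.071 (SE), adjusted p = 1.72e-05), and its log2 fold change in OE_CM was -0.01 ± 0.060 (SE), adjusted p = 0.935. Hsd17b7, the ketoreductase of the same complex, had 35.0, 31.7 and 29.9 CPM in OE_CM, 15.4, 14.8 and 13.5 CPM in TGF_KD_CM, 18.5, 16.1 and 17.8 CPM in TGF_VEC_CM and 30.1, 32.6 and 29.4 CPM in VEC_CM. It moved against Nsdhl in TGF_KD_CM, where it fell by 0.26 ± 0.073 (SE) on the log2 scale (adjusted p = 0.00268). Its log2 fold change was -0.82 ± 0.068 (SE), adjusted p = 9.61e-17 in TGF_VEC_CM and 0.07 ± 0.064 (SE), adjusted p = 0.366 in OE_CM.

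Tm7sf2 and Lbr encode reductases of the same sterol double bond, and Lbr is also the lamin B receptor of the nuclear envelope. Tm7sf2 was scarce, with 1.95, 1.58 and 1.78 CPM in OE_CM, 3.39, 2.04 and 2.17 CPM in TGF_KD_CM, 3.01, 2.35 and 2.47 CPM in TGF_VEC_CM and 3.08, 2.21 and 2.82 CPM in VEC_CM. Its fall in OE_CM (-0.61 ± 0.22 (SE), adjusted p = 0.0144) was lost without OE_CM replicate 2 (-0.53, adjusted p = 0.0599) or VEC_CM replicate 1 (-0.51, adjusted p = 0.0728; 0.00519 to 0.0823 over all alternatives), and neither TGF_VEC_CM (-0.05 ± 0.21 (SE), adjusted p = 0.851) nor TGF_KD_CM (-0.04 ± 0.21 (SE), adjusted p = 0.889) passed. Lbr had 105, 106 and 106 CPM in TGF_VEC_CM and 124, 126 and 120.4 CPM in VEC_CM, a small but separate fall (-0.23 ± 0.032 (SE), adjusted p = 9.81e-09), and did not pass in OE_CM (-0.04 ± 0.032 (SE), adjusted p = 0.332) or in TGF_KD_CM (-0.05 ± 0.033 (SE), adjusted p = 0.269). It was called lower in OE_CM with upper-quartile scaling (-0.12, adjusted p = 0.000639) and limma on FPKM (-0.11, adjusted p = 0.00218; 0.000639 to 1 over all alternatives), and in TGF_KD_CM with limma (-0.08, adjusted p = 0.0259; 0.0259 to 1 over all alternatives).

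Ebp, the isomerase that shifts a ring double bond, had 99.1, 101 and 99.5 CPM in OE_CM, 95.6, 102 and 106 CPM in TGF_KD_CM, 71.5, 75.3 and 69.3 CPM in TGF_VEC_CM and 83.4, 86.4 and 87.9 CPM in VEC_CM. Its fall in TGF_VEC_CM was small (-0.25 ± 0.038 (SE), adjusted p = 4.81e-08), and it was 1.40-fold higher in TGF_KD_CM than in TGF_VEC_CM (0.49 ± 0.038 (SE), adjusted p = 1.39e-17) and 1.16-fold higher in OE_CM than in VEC_CM (0.22 ± 0.038 (SE), adjusted p = 1.45e-06). Every library of OE_CM and TGF_KD_CM thus held more Ebp than any library of its vector medium. Sc5d, a sterol desaturase, had 83.3, 87.1 and 76.9 CPM in OE_CM, 69.1, 67.8 and 72.4 CPM in TGF_KD_CM, 69.2, 65.2 and 66.6 CPM in TGF_VEC_CM and 99.5, 104 and 98.5 CPM in VEC_CM. It fell in TGF_VEC_CM (-0.59 ± 0.040 (SE), adjusted p = 1.49e-20) and in OE_CM (-0.29 ± 0.039 (SE), adjusted p = 4.54e-09), and in TGF_KD_CM its log2 fold change was 0.06 ± 0.041 (SE), adjusted p = 0.258. Dhcr7, the reductase that yields cholesterol in one of the closing branches, had 15.3, 14.1 and 15.1 CPM in OE_CM, 10.6, 11.2 and 9.31 CPM in TGF_KD_CM, 13.5, 15.6 and 15.3 CPM in TGF_VEC_CM and 23.7, 24.8 and 24.6 CPM in VEC_CM. It was lower in each comparison, 1.64-fold lower in TGF_VEC_CM (-0.72 ± 0.075 (SE), adjusted p = 6.55e-13), 1.64-fold lower in OE_CM (-0.72 ± 0.075 (SE), adjusted p = 9.67e-13) and 1.43-fold lower in TGF_KD_CM (-0.52 ± 0.081 (SE), adjusted p = 2.42e-07). These were the largest falls among the members in OE_CM and in TGF_KD_CM.

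Of the transport genes, Tmem97, which encodes a membrane protein that binds the lysosomal sterol exporter Npc1, had 120.3, 129 and 123 CPM in OE_CM, 69.0, 72.8 and 73.2 CPM in TGF_KD_CM, 70.9, 71.0 and 74.6 CPM in TGF_VEC_CM and 91.2, 95.1 and 92.0 CPM in VEC_CM. It was 1.34-fold higher in OE_CM than in VEC_CM (0.42 ± 0.036 (SE), adjusted p = 4.08e-16), the largest rise among the members there. It was 1.29-fold lower in TGF_VEC_CM (-0.36 ± 0.037 (SE), adjusted p = 3.36e-13) and did not pass in TGF_KD_CM (-0.01 ± 0.038 (SE), adjusted p = 0.865). Stard4, a carrier of cholesterol between membranes, had 0 to 4 counts in any library and was not tested.

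**Figure D4:**
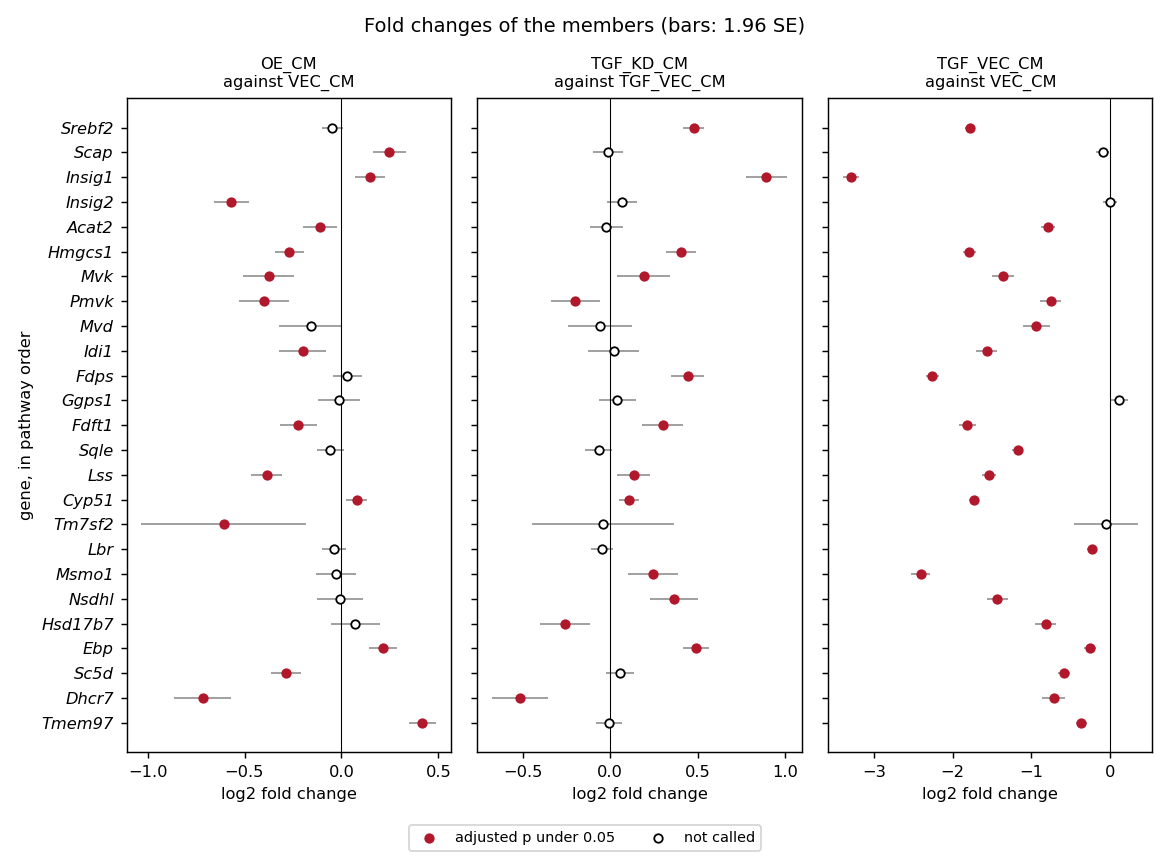
Log2 fold changes of the 25 tested members in OE_CM against VEC_CM, TGF_KD_CM against TGF_VEC_CM and TGF_VEC_CM against VEC_CM, with bars of 1.96 SE. Filled points passed an adjusted p of 0.05, and the horizontal axes differ between panels. In the TGF_VEC_CM panel 21 points are filled and lie left of 0, and in the other panels filled points lie on both sides.

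The effect of the overexpression medium was set against that of the inhibition medium in 1 contrast, the OE_CM effect minus the TGF_KD_CM effect. Of the 25 members, 12 were lower and 3 higher, where 26.8% of all genes tested were lower and 25.6% higher. The largest negative differences were those of Insig1 (-0.74 ± 0.073 (SE), adjusted p = 2.43e-13 by edgeR), Hmgcs1 (-0.67 ± 0.058 (SE), adjusted p = 7.59e-13) and Insig2 (-0.64 ± 0.063 (SE), adjusted p = 1.27e-13). Insig1 was higher with both media, and more so with the inhibition medium. Its small rise in OE_CM was lost as a call in some alternatives, upper-quartile scaling among them. For Insig2 the difference lay with OE_CM, where it fell. Hmgcs1, Mvk, Fdft1 and Lss each fell in OE_CM and rose in TGF_KD_CM, and the difference passed for each, at -0.57 ± 0.10 for Mvk, -0.52 ± 0.077 for Fdft1 and -0.52 ± 0.064 for Lss. The TGF_KD_CM rises of Mvk and Lss were lost as calls in some alternatives. Srebf2 (-0.52 ± 0.042), Fdps (-0.41 ± 0.061) and Nsdhl (-0.37 ± 0.093) differed through their rises in TGF_KD_CM. Tmem97 (0.43 ± 0.052), Hsd17b7 (0.33 ± 0.097) and Scap (0.26 ± 0.061) were the 3 higher. For Dhcr7, which fell in both, the difference was -0.20 ± 0.11 (SE), adjusted p = 0.128, and for Cyp51 it was -0.03 ± 0.040 (SE), adjusted p = 0.556. With upper-quartile scaling both passed as lower, at -0.26 for Dhcr7 (adjusted p = 0.0415; 0.0249 to 0.764 over all alternatives) and -0.09 for Cyp51 (adjusted p = 0.0318; 0.0318 to 1 over all alternatives). The difference for Msmo1 (-0.27 ± 0.090 (SE), adjusted p = 0.00842) was lost without OE_CM replicate 3 (-0.21, adjusted p = 0.0582, 0.00122 to 0.478 over all alternatives). That of Idi1 (-0.22 ± 0.097 (SE), adjusted p = 0.0518) passed without TGF_KD_CM replicate 2 (-0.26, adjusted p = 0.0324) or VEC_CM replicate 3 (-0.24, adjusted p = 0.0473; 0.00746 to 0.714 over all alternatives).

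**Figure D5:**
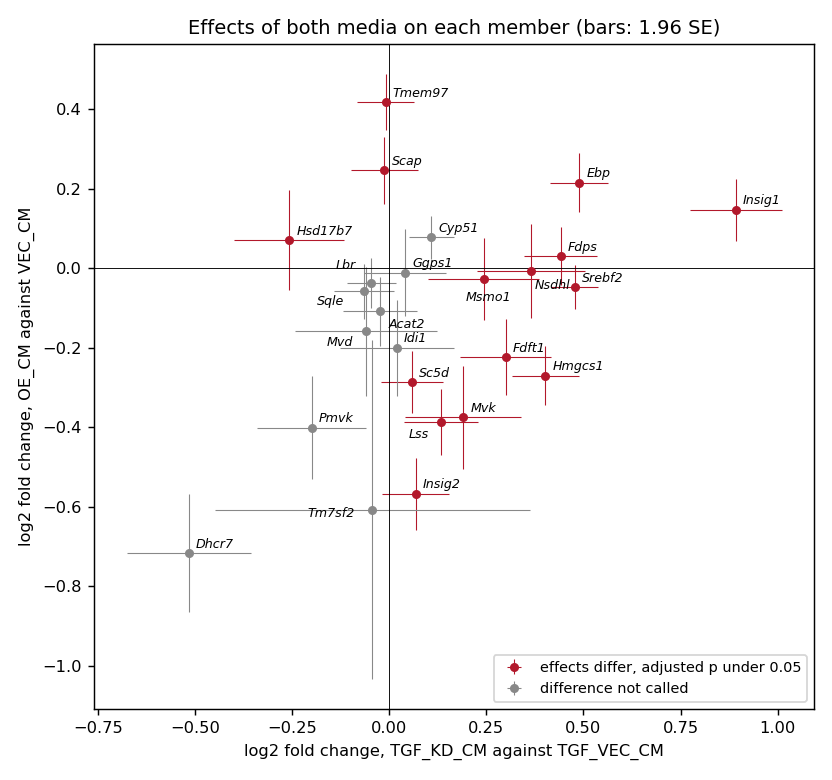
Each point is 1 of the 25 tested members, with the log2 fold change of TGF_KD_CM against TGF_VEC_CM across and that of OE_CM against VEC_CM upwards, and bars of 1.96 SE. Red points passed the test of the difference between both effects. Hmgcs1, Fdft1, Mvk and Lss lie in the lower right, higher in TGF_KD_CM and lower in OE_CM, and Dhcr7 lies in the lower left.

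Levels between genes were compared on the length-scaled FPKM values of the deposited table. In VEC_CM the order ran from Cyp51 (148 ± 6.20 FPKM, SD, n = 3), Fdps (86.8 ± 4.08) and Tmem97 (69.8 ± 1.39) down to Tm7sf2 (1.83 ± 0.305) and, near 0, Stard4. Ebp, Insig1 and Sqle, at 49.4 ± 1.23, 47.7 ± 3.59 and 47.4 ± 0.597 FPKM, were neighbours. The spread of Insig1 overlapped those of Ebp and Sqle, which did not overlap each other. In TGF_VEC_CM the order changed at the top. Tmem97 led with 56.0 ± 1.60 FPKM, before Cyp51 (45.9 ± 0.343) and Ebp (42.7 ± 1.96). Insig1 took the 17th place in TGF_VEC_CM, against the 6th in VEC_CM, at 5.02 ± 0.257 FPKM in TGF_VEC_CM and 47.7 ± 3.59 in VEC_CM. Insig2, at 8.40 ± 0.0244 FPKM in TGF_VEC_CM, stood above Insig1 there, and at 8.13 ± 0.171 FPKM in VEC_CM it stood below.

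Neighbouring lipid pathways were described by lists of other genes. Beside their counts stand the shares of all genes tested, which were 29.4% lower and 28.9% higher in TGF_VEC_CM, 25.7% and 28.4% in OE_CM, and 20.2% and 23.0% in TGF_KD_CM. Among 11 tested genes of sterol uptake, 6 were lower and 4 higher in TGF_VEC_CM, with a median of -0.19, against 0.00 for all genes. Lrp1, a large endocytic receptor, had 1588 ± 33.8 CPM in TGF_VEC_CM and 994 ± 6.69 CPM in VEC_CM (SD, n = 3) and was higher (0.68 ± 0.022 (SE), adjusted p = 1.37e-36 by edgeR), and it was higher in OE_CM as well, at 1839 ± 21.9 CPM (0.89 ± 0.022 (SE), adjusted p = 2.73e-43). In OE_CM 3 of the 11 uptake genes were higher and 3 lower, which is near the shares of all genes, and in TGF_KD_CM 5 were higher and 4 lower.

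Fatty acid synthesis, which SREBP1 drives, had 10 of 13 tested genes lower in TGF_VEC_CM, against 29.4% of all genes, and 3 higher, against 28.9%, with a median of -0.72. Scd2, a desaturase, had 334 ± 10.4 CPM in TGF_VEC_CM and 1136 ± 90.4 CPM in VEC_CM (-1.76 ± 0.065 (SE), adjusted p = 1.28e-08 by edgeR), and Elovl6, an elongase, was 2.02-fold lower (-1.01 ± 0.041 (SE), adjusted p = 3.11e-31). In OE_CM 5 were lower and 3 higher, led by Lpin1 (-1.10 ± 0.084 (SE), adjusted p = 2.01e-18) and Acss2 (-1.05 ± 0.097 (SE), adjusted p = 7.30e-15), and in TGF_KD_CM 3 were lower and 2 higher, led by Acss2 (-1.36 ± 0.095 (SE), adjusted p = 1.15e-19). Against the shares of all genes, the 3 higher in OE_CM and both counts in TGF_KD_CM were near or below them. Among 11 genes of the machinery that processes SREBPs and degrades sterol enzymes, 7 were lower and 4 higher in TGF_VEC_CM, where 29.4% and 28.9% of all genes were, with a median of -0.16. Srebf1, the gene of SREBP1, was the most lowered of them (-0.96 ± 0.033 (SE), adjusted p = 9.45e-26), with 152 ± 2.58 CPM in TGF_VEC_CM and 294 ± 8.68 CPM in VEC_CM. In OE_CM 6 were higher, against 28.4% of all genes, and 3 lower, near the 25.7% of all genes, Srebf1 among those lower (-0.31 ± 0.033 (SE), adjusted p = 6.59e-11), and in TGF_KD_CM 6 were higher and 1 lower, against 23.0% and 20.2%.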

How the data were processed

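The authors deposited a table of raw read counts per gene symbol (whole numbers, 24619 genes, 12 libraries) and a table of FPKM values, in which each count is divided by its column total and by 1 length per gene, checked on the files. The submitters' processing notes name GRCm38 and mm10 as builds. Per the labels' protocols, 1.3 µg of RNA went into each SMARTER library. No aligner, counter, strand setting or annotation is given in the sources used here.

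The test was run in edgeR 4.0.16 (R 4.3.3) on the deposited counts: filterByExpr (14400 genes kept, 10219 not), TMM factors, and 1 robust quasi-likelihood fit of all 12 libraries with a mean per group, two-sided, with Benjamini-Hochberg adjustment over the 14400 genes and a threshold of 0.05. The common biological coefficient of variation was 0.0341. SE is the log2 fold change divided by the root of its F value, and CPM is TMM-scaled. The procedure was also run on simulated counts in which few genes were changed, and only in OE_CM. That setting differs from these data, so the run was a check of the code and not of the calls or scaling. Replicate pairs had a chi-square per gene of 2.45 to 3.42, so no pair was as close as sampling noise.

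The members and lists were chosen with earlier results of these data known. All members were described, with values per library for those called in a comparison or among the 6 largest absolute changes of the members. From each other list at most 4 called genes of largest absolute log2 fold change per comparison could be named, and genes named in one comparison are also given in others. Some genes of these lists are counted in them but not reported here by name. Promoters were to be shown for at most 6 members, those with a sterol response element and then Insig1 and Insig2. Exon overlaps come from GENCODE M21. Alternatives were DESeq2 1.42.0, RLE and upper-quartile factors, no filter, 1 CPM in 3 libraries, limma 3.58.1 on log2(FPKM + 1) with FPKM of at least 0.5 in 3 libraries, only the groups compared, a replicate block, a test against 1.2-fold, and leaving out each library.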

Additional observations from a re-analysis of the deposited data

Results flagged for a closer look

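For 4 members the OE_CM and TGF_KD_CM media had called effects in opposite directions, and the contrast of both effects passed edgeR's quasi-likelihood test. Of all genes tested, 28.4% were higher and 25.7% lower in OE_CM, and 23.0% were higher and 20.2% lower in TGF_KD_CM. How many of all genes had such opposite calls was not counted, so the 4 are not shown to exceed that share. The OE_CM effect minus the TGF_KD_CM effect was -0.67 on the log2 scale for Hmgcs1 (adjusted p = 7.59e-13; OE_CM effect -0.27, TGF_KD_CM effect 0.40) and -0.57 for Mvk (adjusted p = 2.30e-06; -0.38 in OE_CM and 0.19 in TGF_KD_CM). It was -0.52 for Fdft1 (adjusted p = 2.94e-08; -0.22 in OE_CM and 0.30 in TGF_KD_CM) and -0.52 for Lss (adjusted p = 2.10e-10; -0.39 in OE_CM and 0.13 in TGF_KD_CM). The TGF_KD_CM effects of Mvk and Lss were lost as calls in some alternatives. The effects were measured without TGF-beta1 in OE_CM and with it in TGF_KD_CM, so the microRNA and the growth factor's presence cannot be told apart in these differences.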

How the results depend on the processing

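All 21 lower calls in TGF_VEC_CM held in every alternative run other than the test against 1.2-fold, which kept 19. Called in every alternative other than that test were 12 of 16 members in OE_CM, 10 of 14 in TGF_KD_CM and 14 of 15 in the difference of effects. Over members and alternatives, 1933 values kept their sign and their side of the threshold, 58 lost the call and 41 gained one. The sign turned for 1 called value, that of Cyp51 in OE_CM (-0.0092 with upper-quartile factors), and for 42 values not called, of 16 results, up to 0.0793 in size. Members higher in OE_CM numbered 3 with upper-quartile factors and 3 with limma on FPKM, against 5, and members lower 15 with each, against 11. In the difference, 17 were lower with upper-quartile factors and 15 with limma, against 12. Members lower in TGF_KD_CM numbered 5 with limma on FPKM, against 3. Members higher in TGF_VEC_CM numbered 1 (Ggps1) with RLE factors, upper-quartile factors, the 1 CPM filter, limma on FPKM and the replicate block, and 0 to 1 when single libraries were left out, against 0. Tested against 1.2-fold, members higher and lower numbered 1 and 4 in OE_CM and 5 and 1 in TGF_KD_CM, and 1 and 8 in the difference. Over all genes that test called 1405 higher and 1673 lower in OE_CM, 797 and 710 in TGF_KD_CM, 2014 and 1561 in TGF_VEC_CM, and 1943 and 2148 in the difference. Upper-quartile factors moved the median of all genes in OE_CM by -0.09, with 2798 higher and 5059 lower calls (35.6% higher), against 4083 and 3695 (52.5%). The causes were not tested. Libraries with the same replicate number correlated in their deviations at 0.0003 to 0.0436, so numbers were not taken as pairs; beside Ggps1, the replicate block changed 1 member's call, Idi1 in the difference (-0.22, adjusted p = 0.0479). Low counts limit what can be read for Stard4 and Tm7sf2, and why they were low was not tested.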

Other observations

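Genes of sterol export and of the sterol-sensing LXR receptors were also tested. In OE_CM 6 of 8 were lower, against 25.7% of all genes tested, and 2 higher, near the 28.4% of all genes, by edgeR's quasi-likelihood test. Abca1, the main exporter of cellular cholesterol, had 3.67 ± 0.389 CPM in OE_CM and 11.6 ± 1.79 CPM in VEC_CM (SD, n = 3), 3.15-fold lower (-1.65 ± 0.11 (SE), adjusted p = 2.36e-19). In TGF_VEC_CM it had 23.2 ± 2.31 CPM and was 2.01-fold higher than in VEC_CM (1.00 ± 0.089 (SE), adjusted p = 6.82e-15), opposite in sign to most cholesterol synthesis genes there, and in TGF_KD_CM it had 15.2 ± 0.995 CPM and was lower than in TGF_VEC_CM (-0.60 ± 0.086 (SE), adjusted p = 3.74e-08). Of the 8, 4 were lower and 3 higher in TGF_VEC_CM, against 29.4% and 28.9% of all genes, and 4 lower and 3 higher in TGF_KD_CM, against 20.2% and 23.0%. Abca7, a related transporter, was lower in OE_CM (-0.70 ± 0.038 (SE), adjusted p = 3.42e-25) and in TGF_VEC_CM (-0.57 ± 0.038 (SE), adjusted p = 4.02e-21).

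Among 10 tested genes of oxysterols and sterol esters, 5 were lower and 2 higher in OE_CM (all genes 25.7% and 28.4%), 4 higher and 3 lower in TGF_VEC_CM (all genes 28.9% and 29.4%), and 4 higher in TGF_KD_CM with 0 lower by edgeR (all genes 23.0% and 20.2%), and 0 lower also at an unadjusted p under 0.05 and by DESeq2. Cyp27a1, a sterol hydroxylase, was lower in OE_CM (-0.72 ± 0.18 (SE), adjusted p = 0.000533) and higher in TGF_VEC_CM (1.01 ± 0.16 (SE), adjusted p = 1.02e-07). Among 11 tested genes of the isoprenoid branches and other sterol enzymes, 5 were higher in OE_CM with 0 lower by edgeR (0 also at an unadjusted p under 0.05 and by DESeq2), 3 were higher and 1 lower in TGF_KD_CM, and 4 were higher and 3 lower in TGF_VEC_CM. The shares of all genes are those given for the oxysterol list.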
